A study of Homo sapiens with 2 samples.

Results

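Trefoil peptides, the lectin REG4 and a set of other genes of mucous and goblet secretion were followed between Capan-1 cells and an olaparib-resistant derivative of them. The 9 genes are TFF1, TFF2, TFF3, REG4, AGR2, AGR3, SPINK1, SPDEF and FCGBP, listed by symbol among the 31845 Ensembl genes of the deposited table. They were chosen with their levels in these libraries already known, so the counts of members below are descriptions. Of the 9 genes, 8 had a row under their identifier, and all 8 reached 50 counts in 1 of the libraries or both. FCGBP was entered at 0 by the rule that picks the genes, but that is not a measurement. Its identifier, ENSG00000275395, is numbered above ENSG00000272514, the highest in the table, and 0 rows of the table lie at or above it. The table may hold FCGBP under an older identifier, but the name tables used here pair its symbol with no other, so no level of FCGBP is given.

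The measurements are transcript counts from 2 total-RNA libraries, 1 of the parental line and 1 of the resistant line, with no replicate. Capan-1 is an established human line from a pancreatic adenocarcinoma whose BRCA2 gene is mutant. Olaparib blocks PARP enzymes. The resistant cells were selected on rising olaparib, from 15 nM up to 128 uM, and the parental cells have the phenotype label control. Whether the resistant line is a single clone, and whether the drug was present at harvest, is not given in the sources used here. The labels enter breast cancer as the cell type of both lines. Keratin genes of duct epithelium were high in both, with KRT19 at an FPKM of 704 in the parental and 932 in the resistant library. ESR1, the estrogen receptor gene of luminal breast cells, had 8 and 18 counts. Other estrogen-responsive genes of such cells had more, with GATA3 at 1884 parental and 486 resistant counts and MLPH at 2185 and 760. These genes were not used to judge the label. FPKM is a count divided by transcript length and by library size, so it allows levels of different genes to be compared.

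The libraries held 34572931 counts (parental) and 34507480 counts (resistant). One pair of columns carries the parental line's name. The other pair has a heading that the labels do not spell out and was read as the resistant line because it is the library that remains. BRCA2, whose amplification the series title names, had 7585 counts in that library and 1381 in the parental one. Every direction below rests on this reading. With 1 library in each group no test between them was possible, and the intervals given are exact 95% intervals that cover counting error alone. In bulk RNA, fewer cells of a type and less RNA per cell cannot be told apart.

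Trefoil peptides are small secreted proteins, held in a compact fold by disulfide bridges, that are released with mucins and help surface epithelium to repair. In the normal gut TFF1 and TFF2 belong mainly to gastric mucous cells, and TFF3 to the goblet cells of the intestine. REG4 is a secreted C-type lectin of intestinal goblet and endocrine cells that many gastrointestinal tumours make. AGR2 and AGR3 are protein disulfide isomerases of the endoplasmic reticulum, and AGR2 is needed for the folding of intestinal mucin. SPINK1 is a secreted trypsin inhibitor of pancreatic acinar cells and of many tumours. SPDEF is an ETS-family transcription factor of goblet cell maturation, and FCGBP is a large protein bound to mucus.

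The genes did not move as one group. REG4 and TFF3 were higher in the resistant library, SPINK1, TFF2 and AGR3 were lower, and TFF1, SPDEF and AGR2 lay within 2-fold and below the parental level. A gene is called higher or lower here at a difference of at least 2-fold with 50 counts or more in the higher library. By that size 2 of the 8 measured genes were higher and 3 were lower. Among all 15102 genes at 50 counts or more, 6.00% were higher, 8.95% were lower and 15.0% differed in either direction. The median log2 ratio of resistant over parental scaled counts was -0.62 for the 8 genes and 0.06 for all 15102.

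**Figure D1:**
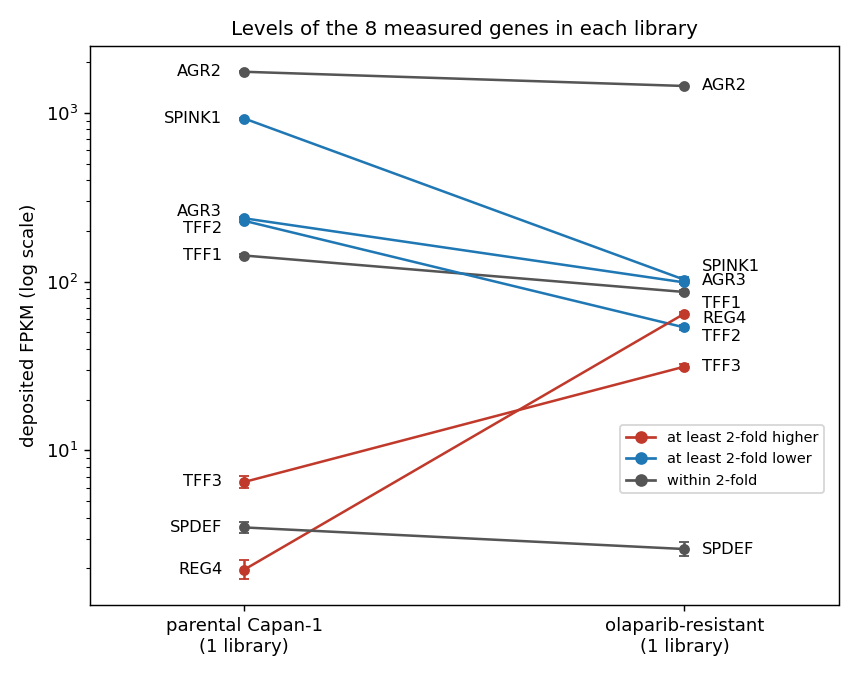
Deposited FPKM (log axis) of the 8 measured genes in the parental and the resistant library, 1 library each, with lines joining the same gene and error bars for exact 95% counting intervals. REG4 goes from the lowest of the 8 at 1.97 to the fifth at 64.6, while AGR2 is the highest in both libraries.

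The trefoil genes diverged from each other. TFF2 had 11223 counts in the parental library (counting interval 11016 to 11433) and 2513 in the resistant one (2416 to 2613), which is 4.44-fold lower (4.25 to 4.63). Of the 15102 genes, 203, TFF2 included, had a log2 ratio at or below its -2.15. TFF2 carries a pair of trefoil domains where TFF1 and TFF3 carry a single one.

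TFF1 was also below its parental level, with 6978 parental and 4069 resistant counts. That is 1.70-fold lower (1.64 to 1.77), a difference beyond counting error but under the 2-fold size. TFF3 went the other way, from 640 counts in the parental library (591 to 692) to 2959 in the resistant one (2853 to 3068). It was 4.65-fold higher (4.27 to 5.08), and 199 genes, TFF3 included, had a log2 ratio at or above its 2.22.

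Set against each other, the ratio of resistant to parental counts was 20.6-fold larger for TFF3 than for TFF2 (18.7 to 22.8) and 7.93-fold larger than for TFF1 (7.21 to 8.72). Between TFF1 and TFF2 the same comparison gave 2.60-fold (2.46 to 2.76). All 3 trefoil genes therefore differed from one another in their ratio by more than counting error. Such a comparison within libraries does not depend on how the libraries are scaled.

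The make-up of the trefoil transcripts differed accordingly. Summed over the family, FPKM came to 378 for the parental and 172 for the resistant library. TFF2 made up 60.6% of that sum in the parental library, ahead of TFF1 at 37.7% and TFF3 at 1.72%. In the resistant library TFF1 led with 50.6%, TFF2 had 31.2% and TFF3 18.3%. The FPKM of TFF2 was 35.2 times that of TFF3 in the parental cells and 1.71 times in the resistant cells. TFF3 thus remained the least abundant trefoil transcript per length in both libraries.

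REG4 had the largest ratio of the set. It had 237 counts in the parental library (208 to 269) and 7461 in the resistant one (7293 to 7632), or 31.7-fold higher (27.8 to 36.2). Its log2 ratio of 4.98 was reached by 26 of the 15102 genes, REG4 included. By FPKM it stood at rank 10366 of all genes in the parental library, with 1.97, and at rank 997 in the resistant one, with 64.6.

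Among genes of 200 counts or more in a library, the log2 ratios nearest to that of REG4 were those of CLTRN, COL5A2 and TM4SF20. CLTRN, which encodes collectrin, had 52 parental and 1616 resistant counts, a log2 ratio of 4.94. The fibrillar collagen gene COL5A2 had 162 and 4873 counts (4.91), and TM4SF20, a tetraspan-like membrane protein gene, had 40 and 1369 (5.07). With 2 libraries, likeness here means a log2 ratio within 0.09 of that of REG4 and nothing further. The relatives of REG4 on the list used here, REG1A, REG1B, REG3A and REG3G, had no row in the table, which lists no gene that is at 0 in both libraries.

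The start region of REG4 is shown because it is the gene with the largest difference, and that of SPINK1 because its difference was the largest in the other direction. Both are the 150 bases before the RefSeq start on GRCh38.p14, minus strand, REG4 at chr1:119811461-119811610 and SPINK1 at chr5:147831672-147831821. Capitals mark matches to the motifs searched.
REG4: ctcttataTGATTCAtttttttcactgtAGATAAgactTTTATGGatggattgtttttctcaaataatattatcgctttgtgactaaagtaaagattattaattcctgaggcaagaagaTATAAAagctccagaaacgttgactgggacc
SPINK1: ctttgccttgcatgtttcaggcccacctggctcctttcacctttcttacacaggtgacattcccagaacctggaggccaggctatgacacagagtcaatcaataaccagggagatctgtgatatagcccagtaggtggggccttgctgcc

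The 250 bases before the start were searched on both strands for 8 short motifs, in the 5 members with an entry in the RefSeq promoter table (REG4, AGR2, AGR3, SPINK1 and SPDEF). TFF1, TFF2 and TFF3 had no entry. REG4 held a TATA box (TATAAA), whose first base lies 31 bases before the start and which is found in 10.7% of all 35116 promoters of the same length. It also held a motif of the CDX homeobox factors (TTTATNG), which 8.93% of all promoters hold. A GATA motif (AGATAA), with a share of 9.17% among all promoters, lies just before it. Farther out is a motif of the AP-1 factors (TGANTCA), with a share of 6.57%. SPINK1 held no match to any of the 8. A match describes letters in this window and not a bound site.

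The protein disulfide isomerase genes AGR2 and AGR3 were the most and the third most abundant of the set in both libraries. AGR2 had 104199 parental counts (103567 to 104834) and 82305 resistant counts (81744 to 82869), 1.26-fold lower (1.25 to 1.27). Its FPKM of 1750 in the parental library ranked 28 among all genes, and its 1441 in the resistant library ranked 32. AGR2 alone made up 65.3% of the parental counts of the 8 genes and 76.1% of their resistant counts. The 8 genes together took 0.462% of all parental counts and 0.313% of all resistant counts.

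AGR3 had 15757 parental counts (15512 to 16005) and 6300 resistant counts (6145 to 6458), 2.48-fold lower (2.41 to 2.56). The ratio for AGR2 was 1.98-fold larger than that for AGR3 (1.92 to 2.04), so these adjacent paralogs differed by more than counting error. Per length, AGR2 exceeded AGR3 by 7.38-fold in parental and by 14.6-fold in resistant cells. The processed pseudogene RAD17P1 lies within AGR3 on the same strand, with 245 parental and 127 resistant counts of its own. None of the other 7 measured members overlaps another gene in GENCODE release 29.

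The start regions of this pair are set side by side because the genes are neighbours and paralogs that differed in their ratios. They are the 150 bases before the RefSeq starts on GRCh38.p14, minus strand, AGR2 at chr7:16805000-16805149 and AGR3 at chr7:16881984-16882133, with motif matches in capitals.
AGR2: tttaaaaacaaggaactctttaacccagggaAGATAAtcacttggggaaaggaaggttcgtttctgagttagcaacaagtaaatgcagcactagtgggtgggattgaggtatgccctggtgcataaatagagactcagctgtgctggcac
AGR3: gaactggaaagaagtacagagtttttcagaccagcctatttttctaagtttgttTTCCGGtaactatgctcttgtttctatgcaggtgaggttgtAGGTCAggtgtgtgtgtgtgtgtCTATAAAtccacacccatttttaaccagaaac

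AGR2 held the GATA motif only. AGR3 held the TATA box, which overlaps a CDX match on the other strand and is capitalised with it as 1 run. It also held an ETS motif (CCGGAA, here on the other strand), present in 14.5% of all promoters, and the arm of the estrogen response element (AGGTCA), present in 12.1%. The arm matched at 2 places, 55 and 225 bases before the start, and the farther one is outside the bases shown. SPDEF held an HNF1 motif (GTTAAT, in 6.23% of all promoters). The FOXA motif (TGTTTAC) matched in 0 of the 5 members and in 2.98% of all promoters.

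SPINK1 had the largest decrease of the set. It had 20024 counts in the parental library (19748 to 20303) and 2129 in the resistant one (2040 to 2221), 9.34-fold lower (8.93 to 9.77). Of the 15102 genes, 79, SPINK1 included, had a log2 ratio at or below its -3.22. By FPKM it went from 925, rank 44 of all genes, to 103, rank 581. Per length, SPINK1 stayed the second most abundant of the 8 in both libraries. By relative length, only 1.62% of the 15102 genes are shorter than SPINK1. Its 2129 resistant counts were fewer than those of every other measured member except SPDEF. In the resistant library its interval overlapped that of AGR3, at an FPKM of 98.8, so their order there is not resolved by counting error. In the parental library the same held for AGR3 at 237 and TFF2 at 229, while every other pair of neighbours in either order was separated. The per-length ratio of SPINK1 to REG4 was 470 in parental and 1.59 in resistant cells.

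The genes of trypsin, the protease that SPINK1 inhibits, lay within 2-fold. PRSS1 had 528 parental and 985 resistant counts (log2 ratio 0.91) and PRSS3 1225 and 1824 (0.58), although these trypsinogen genes are close copies that can share reads. They were the only ones of the 11 listed trypsin and acinar genes with 50 counts or more. The amylase gene AMY2A had 8 and 4 counts, and CPA1, CPB1 and PNLIP had no row, so these acinar markers were at or near 0 in both libraries. The identifier of PRSS2, like that of FCGBP, is numbered above those of the table.

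SPDEF was the least abundant measured member in the resistant library. It had 588 parental counts (541 to 638) and 420 resistant counts (381 to 462), 1.39-fold lower (1.22 to 1.58). Its FPKM was 3.50 in the parental and 2.60 in the resistant library. The interval excludes equal counts after scaling, but the difference is under the 2-fold size.

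**Figure D2:**
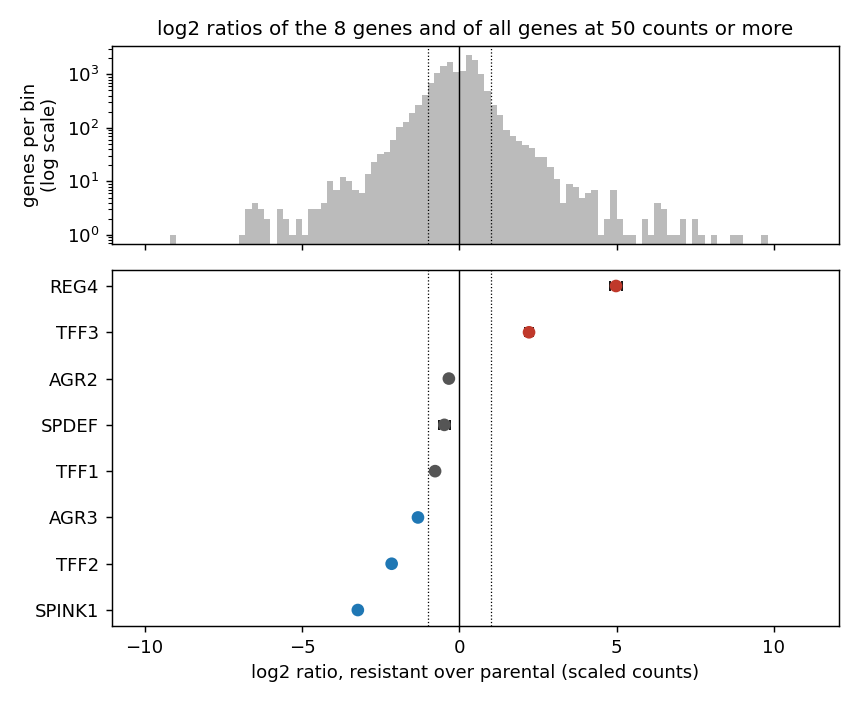
Upper panel, number of genes (log axis) by log2 ratio of resistant over parental for all 15102 genes at 50 counts or more; lower panel, the log2 ratio of each of the 8 genes with its exact 95% counting interval (bars, often smaller than the point) and dotted lines at 2-fold. REG4 at 4.98 and SPINK1 at -3.22 lie in the sparse tails of all genes, and AGR2, SPDEF and TFF1 lie within 2-fold.

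TFF1, TFF2, TFF3, REG4 and SPINK1 each had a log2 ratio outside the range of their neighbouring genes, while those of AGR2, AGR3 and SPDEF lay inside it. TFF1, TFF2 and TFF3 lie next to each other on chromosome 21. The 5 nearest coding genes at 50 counts or more on each side, from RIPK4 to WDR4, had log2 ratios from -0.55 (PDE9A) to 0.93 (ABCG1), with a median of -0.32 and 0 of 10 called. TFF3 and TFF2, at 2.22 and -2.15, lay outside that range in opposite directions. AGR2 and AGR3 are adjacent on chromosome 7. Their 10 neighbours had a median of -0.13, with SOSTDC1 at 1.11 higher and HDAC9 at -2.01 lower, the latter with 76 parental and 18 resistant counts.

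The 10 neighbours of REG4 on chromosome 1 showed a median log2 ratio of 0.58, from -0.62 for PHGDH, a serine synthesis enzyme gene, to 1.16 for ZNF697. REG4, at 4.98, lay far above all 10.

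Around SPINK1 on chromosome 5 the sides differed. The 5 genes before it, SH3RF2 to DPYSL3, had log2 ratios from 0.19 (RBM27) to 0.83 (DPYSL3). The 5 after it, SPINK5 to SH3TC2, ranged from -1.35 (SPINK5) to -0.44 (SH3TC2). SPINK5, a related inhibitor of skin proteases, had 12787 parental and 4985 resistant counts, 2.55-fold lower. SPINK1, at -3.22, was lower than any of them. The 10 neighbours of SPDEF on chromosome 6 ranged from -0.80 (BLTP3A) to 0.57 (SMIM29), a range that holds SPDEF at -0.47.

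**Figure D3:**
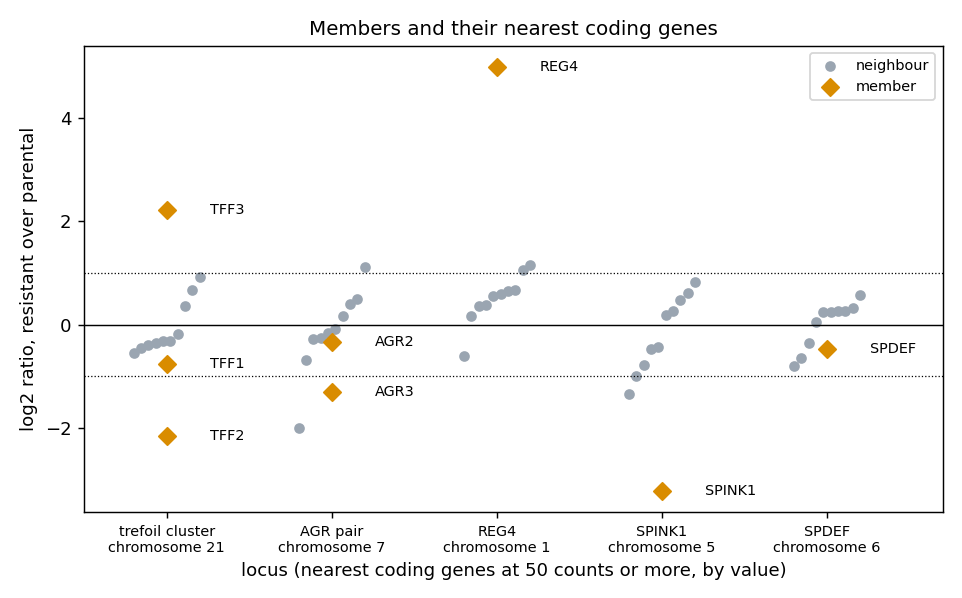
log2 ratio of resistant over parental for each member (orange diamonds, named) and the 5 nearest coding genes on each side with 50 counts or more (grey points, ordered by value), 1 column for each locus, with dotted lines at 2-fold. TFF3 and TFF2 lie in opposite directions beyond all their neighbours, and REG4 at 4.98 stands above neighbours that reach 1.16 at most.

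The regulators of secretory and goblet fate leaned to lower values. Of 10 at 50 counts or more, 0 were higher and 3 lower, and the median log2 ratio was -0.75, against 0.06 over all genes. CREB3L1, a transcription factor of secretory capacity, had a log2 ratio of -2.31, with 574 parental and 114 resistant counts. FOXA2 was 4.08-fold lower with 156 and 38 counts, and ELF3, an epithelial ETS factor, 2.06-fold lower with 8640 and 4168. By deposited FPKM, 116.9 parental and 58.8 resistant, ELF3 lay just under the 2-fold size. KLF4 (-0.88), FOXA3 (-0.95), HES1 (-0.62), FOXA1 (-0.27), CREB3L4 (0.21), GFI1 (0.38) and BHLHA15 (0.51) lay within 2-fold. The list was not divided into activators and repressors of that fate, so its median describes transcript levels only. ATOH1, the master factor of the secretory lineage, had no row.

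Mucus proteins and goblet markers outside the set were mixed: at the count minimum 1 of 7 was higher, 3 were lower and the median was -0.69. The gel-forming mucin genes of the stomach surface and airway, MUC5AC and MUC5B, were 3.93-fold and 2.97-fold lower, MUC5AC with 4622 parental and 1169 resistant counts. BCAS1 was 5.27-fold lower with 3235 and 610 counts. MUC6, the mucin of gastric glands, was 3.37-fold higher with 107 and 358 counts. Several products of intestinal goblet cells outside the set had few or no counts in both libraries. MUC2, the main mucin of these cells, had 1 parental and 2 resistant counts, and CLCA1, ZG16 and RETNLB had no row. SPINK4 passed the count minimum in both libraries, with 79 and 69 counts, and lay within 2-fold. Of the same list, SYTL2 had 9839 and 7453 counts and ZG16B 203 and 125, both within 2-fold.

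Gastric mucous genes, the normal company of TFF1 and TFF2, were lower in 5 of 9 and higher in 0, with a median of -1.66. The gastric mucin genes MUC5AC, which was lower, and MUC6, which was higher, were counted on the list above and not here. BPIFB1 had 1127 parental and 12 resistant counts, PGC, pepsinogen C, 110 and 8, and PSCA 1955 and 200, or 9.71-fold lower. LYZ, lysozyme, had 30464 and 1555 counts. ANXA10, the most abundant of the list per length in the resistant library, lay within 2-fold, with an FPKM of 311 in the parental and 258 in the resistant cells. CLDN18 was 3.24-fold lower with 88 and 27 counts, while CTSE (-0.90), VSIG1 (-0.81) and SOX2 (0.53) lay within 2-fold. The gastrokines GKN1 and GKN2 had 4 and 1 parental counts and 0 resistant counts each.

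Genes of folding and export in the endoplasmic reticulum, where AGR2 and AGR3 work, were mostly level. Of 18, all at the count minimum, 16 lay within 2-fold, 0 were higher and 2 lower. Their median of -0.02 turned positive under some scalings, to 0.05 with upper quartile factors. The stress sensor of mucous cells ERN2 was 2.16-fold lower and the oxidase gene ERO1B 2.08-fold lower. PDIA6 was 1.51-fold lower and PDIA4 1.34-fold higher, both within the 2-fold size.

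TFF1 and AGR3 are known estrogen-responsive genes of luminal breast cells. Of the 9 such genes at the count minimum, 1 was higher and 2 lower. PDZK1, a scaffold gene, was 6.28-fold higher with 64 parental and 399 resistant counts, while GATA3 was 3.85-fold and MLPH 2.86-fold lower. The median of -0.24 became 0.24 once the trend of the ratio with gene length was removed, so no direction is given for this list. ESR2 had 11 and 3 counts.

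Among gut lineage factors 1 of 8 was higher and 0 lower, with a median of -0.10 that became 0.12 with the length trend removed. The higher one was CDX2, a homeobox factor of intestinal epithelium, with 145 parental and 1042 resistant counts, 7.23-fold higher. HNF4A was 1.58-fold higher and GATA4 1.54-fold lower, both within 2-fold, and ISX had 0 and 28 counts.

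Markers of other gut cell types moved alongside, and their part in the results above was not tested. The listed enterocyte markers had a summed FPKM of 3.10 in the parental and 53.4 in the resistant library. FABP2 and SI reached 50 counts in the resistant library alone, so they could only be called higher. Of the enterocyte markers at the count minimum, 5 of 6 were higher and 1 was lower. Their median log2 ratio was 5.13, or 4.53 with 3 counts in place of the parental 0 of FABP2. The median fell to 4.18 with a prior of 5 counts and to 3.46 with no count minimum. VIL1, villin, was 16.1-fold higher with 170 and 2719 counts, FABP2 had 0 and 93 counts, at least 31.2-fold higher against a floor of 3 counts, and SLC5A1, a glucose transporter gene, was 4.05-fold lower. The brush border enzyme gene SI had 3 parental and 330 resistant counts, the cadherin gene CDH17 85 and 6138, and the keratin gene KRT20 140 and 2401. Under 50 counts in both libraries, FABP1 had 0 and 10 counts, ANPEP 0 and 7, ALPI 3 and 1, APOA1 3 and 2 and LCT 8 and 7. APOA4 had no row. Of 10 enteroendocrine markers only CCK reached 50 counts, with 56 parental and 2 resistant, and 7 had no row, CHGA among them. Paneth cell markers were lower in 2 of 2 at the minimum, LYZ and MMP7, while DEFA5 and DEFA6 had no row. MMP7 was 3.55-fold lower with 29118 and 8144 counts.

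Ductal markers were lower in 3 of 6, beside 8.95% of all genes, and higher in 0, with a median of -1.04. CA2, CFTR and MUC1 were 4.89-fold, 3.47-fold and 2.54-fold lower. The keratin genes KRT7 (log2 ratio 0.54) and KRT19 (0.35) lay above the parental level and SOX9 (-0.74) below it, all within 2-fold. The summed FPKM of the list was 1035 in the parental and 1365 in the resistant library, led by KRT19 and by KRT7, at 273 and 410. Fibroblast markers had a summed FPKM of 0.649 and 3.04, the latter led by LUM at 2.04 and ACTA2 at 0.709, with COL3A1 at 0 and 8 counts and DCN at 0 and 5. Of the 3 fibroblast markers at the count minimum, 1 was higher and 1 lower. LUM was 15.0-fold higher, with 35 parental and 523 resistant counts, and COL1A1 was lower, with 97 and 38. ACTA2, with 53 and 106 counts, had a log2 ratio of 0.996, just under the 2-fold size. Among leukocyte markers other than LYZ, CD68, a lysosomal protein gene of macrophages, had the most counts, 351 parental and 582 resistant. PTPRC had 7 and 19 counts, CD3E 1 and 1, and CORO1A 12 and 81. Of the 3 leukocyte markers at the count minimum, 1 was higher and 1 lower.

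**Figure D4:**
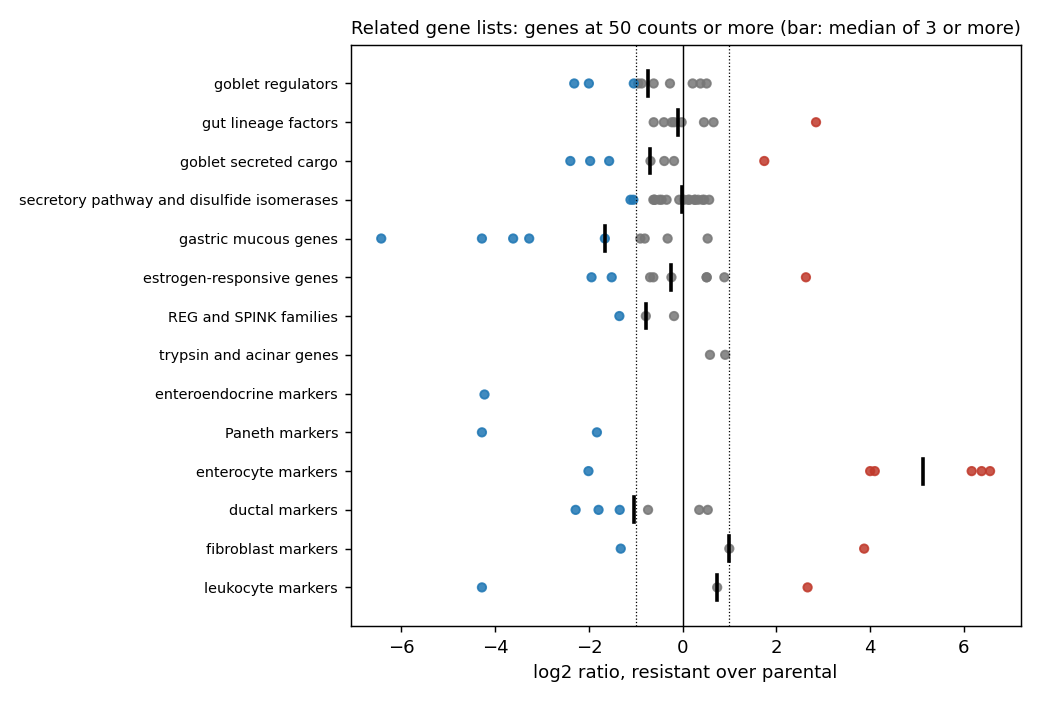
log2 ratio of resistant over parental for every listed gene at 50 counts or more, 1 row for each list, with red for at least 2-fold higher, blue for at least 2-fold lower, grey for within 2-fold, and a black bar at the median where 3 or more genes are shown. Gastric mucous genes reach from -6.43 to 0.53, and 5 of 6 enterocyte markers lie above the 2-fold line. Among these enterocyte markers, SI and FABP2 reached 50 counts in the resistant library alone.

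Over all 14 lists, 83 different genes had 50 counts or more, of which 10 (12.0%) were higher and 23 (27.7%) lower, beside 6.00% and 8.95% of all genes. Some of these genes appear on more than 1 list and were counted once. The lists were chosen with earlier results of these data known, so these shares are descriptions and the distance from all genes was not tested.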

How the data were processed

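RNA from 1 parental and 1 resistant Capan-1 library was analysed. Per the labels' protocols, RNA was extracted with Trizol and libraries were made with a strand-specific ScriptSeq kit. The deposited table gives, per the file headers, a count and an FPKM value per Ensembl gene and library, both made by the authors. The counts are whole numbers with no normalization. Per the submitters' processing notes, RSEM 1.2.3 and hg19 were involved, with no role stated. The annotation and the strand setting of the counting are not given there.

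Members and lists were chosen with earlier results of these data known. Symbols came from a gene name table that matched 29536 of 31845 identifiers. FPKM values were used for levels. Counts were scaled on the whole table with TMM factors (edgeR 4.0.16, R 4.3.3), with a prior of 1 count for log2 ratios. Ratios have exact conditional 95% intervals (Clopper-Pearson), counts have exact Poisson ones, and ratios between members are conditional odds ratios. Neighbours follow RefSeq gene order on GRCh38.p14, and coordinates and start sequences are RefSeq's, not those of hg19. All 8 measured members, up to 4 called genes of each list with the largest differences (or the 2 largest), and the extremes at each locus were to be named. The other genes in the text were added once their values had been seen. Other settings tried were scaling (DESeq2 1.42.0 median of ratios, upper quartile, totals), deposited FPKM, prior, count minimum, fold size and a length trend (lowess, statsmodels). Calculations were tested on simulated data. Depth was 34507480 to 34572931 counts. Of the neighbouring genes, 1 that the rule covers is not reported by name here.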

Additional observations from a re-analysis of the deposited data

How the results depend on the processing

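The calls of all 8 measured members kept their side of the 2-fold size and their direction under every scaling, prior and count minimum tried, with deposited FPKM in place of counts and after removal of the length trend. At a 4-fold size AGR3 was no longer lower, which left 2 members lower and 2 higher. REG4 ranged from 4.92 to 5.05 on the log2 scale, TFF3 from 2.15 to 2.29, TFF2 from -2.21 to -2.08, AGR3 from -1.38 to -1.24 and SPINK1 from -3.29 to -3.15. TFF1 ranged from -0.83 to -0.70, SPDEF from -0.54 to -0.40 and AGR2 from -0.39 to -0.26. Of 64 alternative values of members, 0 changed sign and 10 moved beyond the counting interval. Those that moved were 3 each for AGR2 and AGR3, 2 for TFF1 and 1 each for TFF2 and SPINK1. For these members the counting interval is narrower than the spread between settings. Median of ratios factors were equal for both libraries, so the same method over genes at the count minimum was added after seeing the data. The median over all genes shifted by at most 0.07 under these scalings. Among the listed genes, the number at least 2-fold higher went from 10 to 22 with no count minimum, since genes of few counts then entered. Of 129 alternative values of list medians, 8 changed sign, in the gut lineage, secretory pathway, estrogen-responsive and leukocyte lists. The enterocyte median, 5.13, ranged from 3.46 (no count minimum) to 5.28 (length trend removed), with 4.10 at a minimum of 10 or 200 counts. No paired analysis was possible because each group has 1 library. Depth limits genes of a few counts, such as MUC2, and not the measured members. The lack of a replicate limits every difference: how far 2 cultures of 1 line would differ was not measured.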
